A study of Arabidopsis thaliana with 13 samples.

Results

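The cytosolic ribosomal protein genes examined here encode the proteins of the ribosome that translates nuclear messages, as distinct from those of chloroplasts and mitochondria. Of 60 Arabidopsis genes of this kind, given by locus, 44 had a probe set that the annotation assigned to 1 gene only, and 42 of those 44 passed the filter on dim probe sets. The 42 genes were compared with the 10982 genes tested in all and with 93 tested genes from a list of the other cytosolic ribosomal protein genes. A further 16 of the 60 had no probe set of their own, and 6 genes of the 60 were on probe sets shared with other genes, which were not used. AT1G36240 (family L30) and AT3G10950 (family L37a) were measured but dim, with mean levels of 3.99 and 3.14 against a filter level of 4.03. AT2G09990 (family S16) passed narrowly, with a mean of 4.04, and only through its levels at 54 to 72 h, since its other 9 arrays had a mean of 3.88. Its rise over time is therefore tied to the filter and supports nothing, and it is counted below unless stated. Below that filter were 4.55% of the measured genes of the list, against 33.6% of all genes with a probe set of their own.

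A ribosome is built from a large and a small subunit, each made of folded ribosomal RNA with many proteins bound to it. The small subunit reads the messenger RNA, and the large subunit joins the amino acids and holds the tunnel through which the new chain leaves. In Arabidopsis nearly every ribosomal protein is encoded by several genes, its paralogues, and growing and dividing tissues are known for high levels of these messages. The family names used here (L6, S7 and so on) are those of the usual Arabidopsis nomenclature, written by hand, because the annotation names 50 of the 60 genes by locus alone. By that nomenclature the 42 genes belong to 33 families, with 25 genes of the large subunit, 16 of the small subunit and 1, AT2G27710 (P2), of the lateral stalk that recruits elongation factors.

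The plants were Col-0, and cotyledons of 6-day-old seedlings were the tissue. They were cultured in a medium with 2,4-D (an auxin) at 1.25 mg/L, kinetin (a cytokinin) at 0.25 mg/L and bikinin (an inhibitor of GSK3-like kinases) at 10 µM, conditions known as VISUAL, in which leaf cells become xylem and phloem cells. There was 1 array at each of 13 times, every 6 h from 0 h, before induction, to 72 h. Neighbouring times were grouped as 6 to 24 h, 30 to 48 h and 54 to 72 h (4 arrays each), beside the lone 0 h array, so an SD holds change within a window as well as array error. No uninduced cotyledons of the later times were analysed here, and p-values measure the spread between these arrays, which come from samples that the labels do not tie to separate cultures. The log scale of the values was read as log2, since the sources used here do not give its base, and all folds rest on that reading.

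The array medians, as deposited, were 5.15 to 5.35 in the 5 arrays up to 24 h and 5.82 to 5.99 in the 8 later ones, so each array was centred on its own median. The labels' array numbers run in steps of 2 up to 24 h and of 1 after it, and from these numbers and the step in medians the arrays are treated here as 2 sets. The labels name no such sets, and a change of set between 24 and 30 h and the time there cannot be told apart. In whole cotyledons, fewer cells of a type and less RNA per cell cannot be told apart either. Of the cell type markers chosen for this tissue, 6 of 8 photosynthesis genes of mesophyll, 3 of 5 genes of dividing cells and 2 of 6 phloem genes were measured, and 0 of 5 procambium and 0 of 7 xylem genes. The summed linear level of the photosynthesis genes was 20363 at 0 h, 5756 to 13627 at 6 to 24 h, 1880 to 2869 at 30 to 48 h and 1373 to 1846 at 54 to 72 h. That of the dividing-cell genes, the Aurora kinase genes AUR1, AUR2 and AUR3, was 304, 285 to 1147, 1516 to 2396 and 2480 to 2754 at the same times. That of the phloem genes, CLE41 and CLE44, was 503, 1194 to 2695, 2378 to 3227 and 2292 to 2334. The part of these cell types in the results on ribosomal protein genes was not tested.

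Most of the ribosomal protein genes lay below their starting level at 12 and 18 h, and the median then returned to or past that level at a time and to a height that depended on the scaling of the arrays. Over the 42 genes, the median of the level less the 0 h level was -0.16 for the 6 h array, -0.55 for 12 h, -0.57 for 18 h and -0.19 for 24 h. The 30 h array gave -0.23, the 36 h array 0.01, and those of 42 to 72 h between 0.03 and 0.15. With the other scalings the arrays of 42 to 72 h gave higher medians, 0.16 to 0.26 with cyclic loess, 0.24 to 0.33 with quantile normalization, 0.28 to 0.42 when centred on named probe sets and 0.78 to 0.90 as deposited. The median was already at -0.02 at 24 h when centred on named probe sets and at -0.0024 as deposited. The 6 h level lay below the 0 h level in 34 of 42 genes, against 50.6% of all genes, and the mean of 12 and 18 h did in 40 of 42, against 57%.

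**Figure D1:**
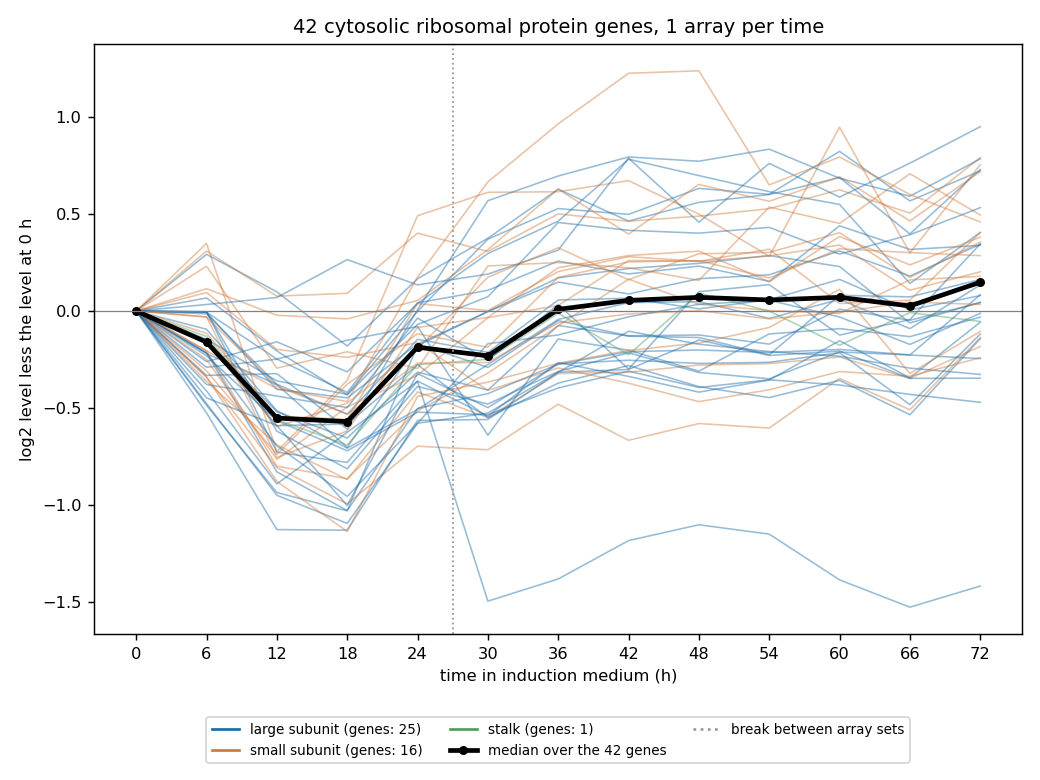
Log2 level of each of the 42 cytosolic ribosomal protein genes less its own level at 0 h (vertical axis) against time in induction medium in hours (horizontal axis), 1 array per time, with the median over the genes in black. The median is lowest at 12 and 18 h (-0.55 and -0.57) and near 0 from 36 h on, and 1 gene of the large subunit, AT2G37600, stays more than 1 below its start after the break between array sets.

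The lowest of the 13 arrays was that of 12 or 18 h for 36 of the 42 genes, against 14.6% of all genes. It was the 18 h array for 30 of them, against 8.72% of all, and the 12 h array for 6, against 5.85%. The 12 and 18 h levels both lay below 0 h and the 24 h level above the 18 h level in 38 of 42 genes, against 23.6% of all genes, a criterion set after the values were seen. The other cytosolic ribosomal protein genes met it in 82 of 93. From 18 to 24 h, a step before the change in array numbers, the level was higher in 40 of 42 genes, against 40.6% of all genes. The shape was similar under the other scalings of the arrays, which gave 36 of 41 to 38 of 42 genes with this dip, against 19.5 to 24.7% of all genes.

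The 2 genes whose 24 h level was not above that at 18 h were AT2G09990 (S16) and AT2G39390 (L35). AT2G39390 had 4.92 at 0 h, 4.95, 4.99, 5.19 and 5.06 at 6 to 24 h, 5.11, 5.23, 5.71 and 5.38 at 30 to 48 h and 5.68, 5.51, 5.68 and 5.87 at 54 to 72 h, so its lowest array was the one before induction. AT2G31610, listed as S3, a protein at the entry of the messenger RNA channel, was also lowest at 0 h, with 8.58, against 8.66 to 8.99 on the 4 arrays of 6 to 24 h. These were the 2 genes whose 4 arrays of 6 to 24 h all lay above the 0 h array (26.9% of all genes). Their differences from 0 h, 0.22 for AT2G31610 and 0.13 for AT2G39390, did not pass the test (adjusted p of 0.324 and 0.719 in limma).

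The comparison of 6 to 24 h with 0 h asked how far these messages changed on the first day. In it 6 of 42 genes (14.3%) fell at a Benjamini-Hochberg adjusted p under 0.05 in limma, near the 12% of all genes that fell, and 0 rose, against 12.1%. With a log2 difference of at least 1 as well, 0 genes passed (6.3% of all genes higher and 5.49% lower). The differences were small and mostly of 1 sign. The median was -0.37 over the 42 genes and -0.37 over the other cytosolic ribosomal protein genes, against -0.08 over all genes, and 38 of 42 differences were below 0, against 57.5% of all (4 were above, against 42.5%). All 4 arrays of 6 to 24 h lay below the 0 h array in 29 of 42 genes, against 36.2% of all.

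AT2G20450, listed as L14, had 9.74, 9.14, 9.13 and 9.70 at 6 to 24 h, against 10.26 at 0 h. It fell 1.79-fold, a log2 difference of -0.84 (SE 0.23, adjusted p = 0.0226 in limma). AT2G44120, listed as L7, had 8.10, 7.63, 7.48 and 8.0 at 6 to 24 h, against 8.58 at 0 h, and fell 1.71-fold (adjusted p = 0.0163 in limma). In both genes the 12 and 18 h arrays were the lowest, and no array of 6 to 24 h reached the 0 h level.

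The remaining 4 called genes were AT2G04390 (S17), AT3G07110 (L13a), AT1G48830 (S7) and AT3G09500 (L35, a protein beside the tunnel exit), with log2 differences between -0.71 and -0.51 and adjusted p between 0.025 and 0.0496 in limma. AT3G02080 (S19), AT1G07070 (L35a) and AT2G01250 (L7) had differences of -0.70, -0.66 and -0.64 that did not pass, with adjusted p between 0.0595 and 0.0826. At the other end stood AT2G31610 and AT2G39390, described above, AT1G70600 (L27a, 0.09), AT2G21580 (S25, 0.03), AT1G58380 (S2, -0.06) and AT3G04840 (S3a, -0.13). None of these 6 passed the test, and the sign of AT2G21580, AT1G58380 and AT3G04840 changed with the scaling of the arrays. Each call of this comparison rests on the single 0 h array and on giving it the spread found inside the windows. The number of calls changed with the array left out. No call remained in a fit of the 5 arrays of 0 to 24 h alone. The median over the genes stayed between -0.44 and -0.30 when arrays after 0 h were left out 1 at a time.

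Inside the first day, the 24 h array was compared with those of 6 to 18 h, all before the change in array numbers. The 24 h array has no replicate, so its test takes the spread of the arrays within the other groups of the fit of all 13 arrays, with 8 residual degrees of freedom. Here 0 of 42 genes passed in either direction, against 2.01% of all genes higher and 2.18% lower. With a log2 difference of at least 1 there were again 0, against 1.55% of all genes higher and 1.13% lower. The smallest adjusted p was 0.0953, that of AT1G07070 (L35a), with 10.08 at 24 h against 9.78, 9.33 and 9.23 at 6, 12 and 18 h. The median log2 difference was 0.19 over the 42 genes, against -0.10 over all genes, and 38 of 42 differences were above 0, against 35.9% of all (4 were below, against 64.1%). With array weights 16 genes passed, all of them higher, against 11% of all genes higher and 18.8% lower in that fit. Without the 6 h array 2 passed, both higher, against 2.46% of all genes.

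Most calls were made on the second day. In 30 to 48 h against 6 to 24 h, 23 of 42 genes rose at an adjusted p under 0.05, against 15.9% of all genes, and 2 fell, against 43.3%. Without AT2G09990, 22 of 41 rose. Of the other cytosolic ribosomal protein genes 55 of 93 rose and 1 fell. The median log2 difference was 0.36 over the 42 genes and 0.37 over the other 93, against -0.25 over all genes, so the ribosomal protein genes lay 0.62 above the median of all genes. Most changes were under 2-fold, and a log2 difference of at least 1 was reached by 2 of 42 genes among those higher, against 5.11% of all, and by 0 among those lower, against 8.3%. In all 39 differences were above 0, against 31.5% of all genes, and 3 below, against 68.5%. This comparison shares the 6 to 24 h arrays with the one before it, so the fall and the rise are not independent measurements.

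By subunit, 11 of 16 small subunit genes rose and 1 fell (median 0.48 on the log2 scale), as did 11 and 1 of the 25 large subunit genes (median 0.31). The stalk gene AT2G27710 rose 1.25-fold (adjusted p = 0.0456 in limma). The difference between subunits was not tested.

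The largest rise was that of AT3G09680, listed as S23, a protein of the small subunit next to the decoding centre. Its levels were 5.22, 5.51, 5.78 and 5.79 at 30 to 48 h, against 4.35, 4.15, 4.08 and 4.72 at 6 to 24 h, which do not overlap. It rose 2.37-fold, a log2 difference of 1.25 (SE 0.17, adjusted p = 0.000189 in limma). At 0 h it had 4.55, so its levels on the second day lay above the start and not only above the trough. With 4.08 to 4.15 at 12 and 18 h it was close to the filter level of 4.03, so the size of its fold rests on dim values. Its 54 to 72 h arrays had 5.20, 5.34, 5.15 and 5.01.

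AT3G05560, listed as L22, had 6.50, 6.62, 6.72 and 6.70 at 30 to 48 h, against 5.60, 5.61, 5.32 and 5.94 at 6 to 24 h, again without overlap. It rose 2.03-fold, a log2 difference of 1.02 (SE 0.13, adjusted p = 0.00013 in limma). It had 5.93 at 0 h and 6.76, 6.61, 6.52 and 6.71 at 54 to 72 h, so it too settled above its start. It passed a log2 difference of 1 by little, and had 0.92 without the 18 h array and 0.99 without the 42 h array.

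AT1G07070 and AT1G41880 (both L35a), AT1G27400 (L17, a protein that lines the exit tunnel) and AT2G44120 (L7) followed, with rises of 1.76-fold, 1.66-fold, 1.67-fold and 1.63-fold and adjusted p between 0.000266 and 0.00136 in limma. The 4 arrays of 30 to 48 h lay above all 4 of 6 to 24 h in these 4 genes, as in 14 of the 42, against 12.8% of all genes. They lay below in 2 of the 42, those that fell, against 35.5% of all. The other 17 genes that rose did so by 1.25-fold to 1.58-fold.

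Of the 2 genes that fell, AT2G37600, listed as L36, had 6.66, 6.78, 6.97 and 7.06 at 30 to 48 h, against 7.75, 7.27, 7.53 and 7.79 at 6 to 24 h. It fell 1.64-fold (log2 difference -0.72, SE 0.14, adjusted p = 0.00104 in limma). It had 8.16 at 0 h and 7.01, 6.77, 6.63 and 6.74 at 54 to 72 h, and the mean of these 4 last arrays lay 1.37 below 0 h. Its largest step, of -1.13, lay between 24 and 30 h, where the array sets change. The call was lost with the values as deposited, where its difference was -0.05 (adjusted p = 0.814), while the other scalings kept it.

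AT3G04840, listed as S3a, had 12.19, 12.31, 12.23 and 12.13 at 30 to 48 h, against 12.70, 12.40, 12.36 and 12.44 at 6 to 24 h. Its difference of -0.26 (SE 0.07, adjusted p = 0.01 in limma) turned with the scaling and was 0.26 after quantile normalization, 0.16 after cyclic loess and 0.41 as deposited. It lay close to the median of all genes, -0.25. AT1G74050 (L6), AT2G19740 (L31), AT2G19730 (L28) and AT2G04390 (S17) came next, with differences of -0.13, 0.00, 0.08 and 0.10 that did not pass, that of AT1G74050 being 0.54 as deposited and 0.06 when centred on named probe sets.

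**Figure D2:**
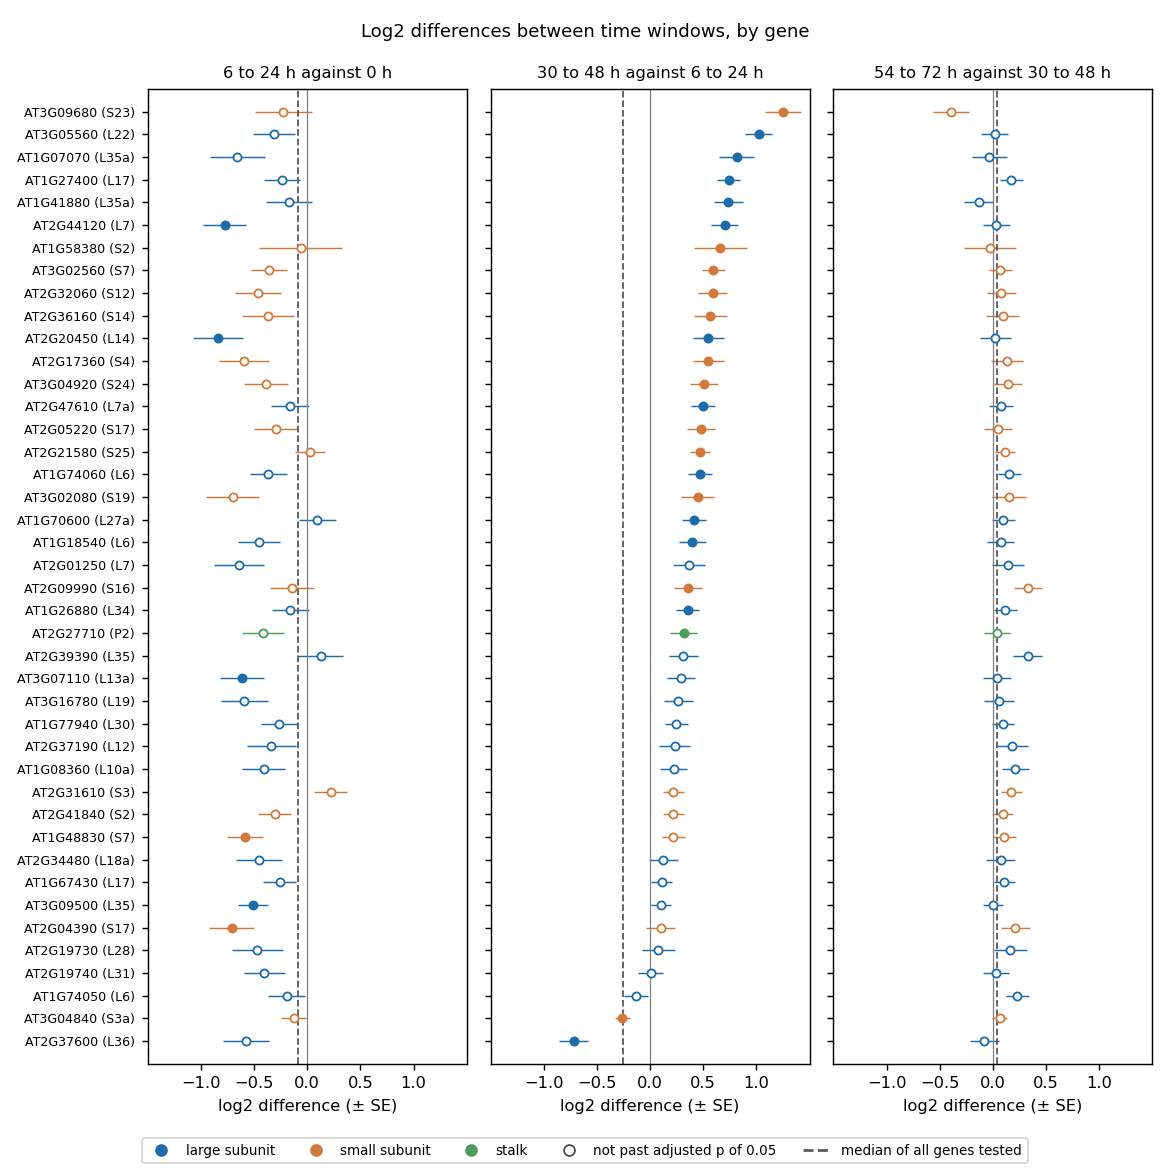
Log2 difference with its standard error (horizontal axis) for each of the 42 genes in 3 window comparisons (panels), ordered by the middle one, with filled points past an adjusted p of 0.05 and the median of all genes tested as a dashed line. In the middle panel 23 points are filled right of 0 and 2 left of it, and in the right panel 0 points are filled.

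The height of the rise depended on the scaling of the arrays, though its sign did not. The median log2 difference of the 42 genes was 0.36 with centring on array medians, 0.55 with centring on named probe sets, 0.58 with quantile normalization and with cyclic loess, and 1.03 as deposited. The median of all genes moved with it and was -0.25, -0.06, -0.14, -0.12 and 0.42 in the same settings. The ribosomal protein genes lay 0.62 above all genes with either centring and with the deposited values. These settings differ by a constant for each array, which cancels in this difference, so their agreement was fixed in advance. The difference was 0.73 with quantile normalization and 0.71 with cyclic loess. Of the 23 genes that rose, all 23 were kept with the deposited values, cyclic loess and centring on named probe sets, and 22 with quantile normalization, where 41 of the 42 genes were tested. The other scalings called more, with 33 of 41 genes higher after quantile normalization (19.8% of all genes), 35 of 42 after cyclic loess (20.7%), 37 when centred on named probe sets (23.6%) and 41 as deposited (57.7%).

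**Figure D3:**
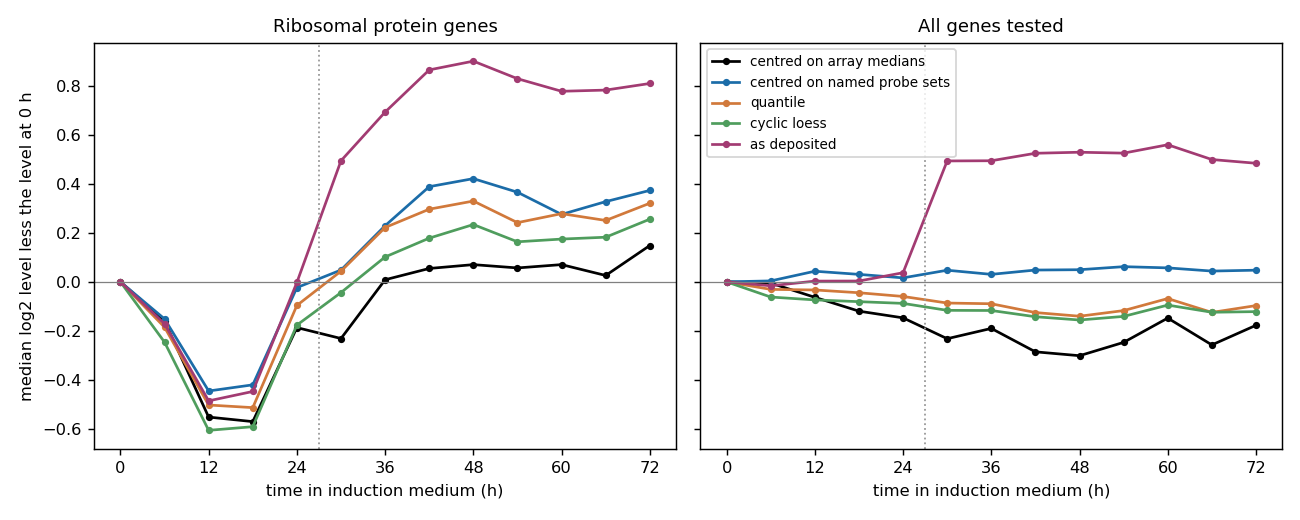
Median over genes of the log2 level less the gene's 0 h level (vertical axis) against time in hours (horizontal axis) under 5 scalings of the arrays, for the ribosomal protein genes (left) and for all genes tested (right). The dip at 12 and 18 h is present in all 5 lines on the left and in none on the right, while the height from 30 h on spreads with the scaling in both panels.

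On the third day no call was made. In 54 to 72 h against 30 to 48 h, 0 of 42 genes rose and 0 fell at an adjusted p under 0.05 in limma, against 9.86% and 5.12% of all genes, and likewise 0 with a log2 difference of at least 1, against 3.91% and 1.47%. The smallest adjusted p was 0.12 in limma. The median log2 difference was 0.09, against 0.04 over all genes, and 36 of 42 differences were above 0, against 56.3% of all. The 2 highest differences were 0.33 for AT2G09990 (S16) and 0.33 for AT2G39390 (L35), and AT1G74050 (L6), AT2G04390 (S17), AT1G08360 (L10a, a protein of the L1 stalk) and AT2G37190 (L12, at the base of the lateral stalk) followed with 0.18 to 0.23. The lowest were AT3G09680 (S23, -0.40), AT1G41880 (L35a, -0.13), AT2G37600 (L36, -0.08), AT1G07070 (L35a, -0.03), AT1G58380 (S2, -0.03) and AT3G09500 (L35, -0.00). Over the 3 days, the mean of 54 to 72 h lay above 0 h in 25 of 42 genes, against 39.6% of all. That count moved with the scaling, to 30 with cyclic loess (43.9% of all genes), 34 of 41 with quantile normalization (45.1%), 34 when centred on named probe sets (52.4%) and 41 as deposited (70.7%).

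AT2G09990 (S16) was the gene nearest the filter level and passed it through these last arrays, with 4.38, 4.30, 4.55 and 4.34 at 54 to 72 h, against 4.08, 4.09, 4.07 and 4.00 at 30 to 48 h. The filter favoured this pattern, so it is a description. All arrays of 54 to 72 h lay above those of 30 to 48 h in 4 of the 42 genes, this one included, against 16% of all, while in 0 genes did all arrays of 54 to 72 h lie below those of 30 to 48 h, against 8.61%. AT1G58380 (S2), with a mean level of 5.65 and 4.58 on its lowest array, had the second largest range over the 13 arrays. It was 1.67, between 1.70 for AT3G09680 and 1.53 for AT2G37600. The smallest ranges were those of AT1G67430 (L17, 0.49), AT3G04840 (S3a, 0.56) and AT2G41840 (S2, 0.58).

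A smooth curve through all 13 arrays, a natural spline of 3 degrees of freedom, was past limma's F test in 35 of 42 genes (83.3%), a share near the 77.5% of all genes. A fitted range of at least 1 was found in 3 of them, AT3G09680, AT2G37600 and AT3G05560, against 46.4% of all genes. The fitted low lay between 15 and 30 h in 31 of 42 genes, against 14.6% of all, with a median of 20.5 h. With a term for the array sets in the fit, 5 of 42 genes passed, against 42.7% of all, namely AT3G07110 (L13a), AT3G09500 (L35), AT2G04390 (S17), AT1G18540 (L6) and AT2G41840 (S2).

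Whether paralogues differed was asked in the 8 families with at least 2 tested genes, which hold 17 genes and 10 pairs. For each pair the difference between the genes was taken within each array, where a shift of the whole array cancels, and compared between windows with an exact two-sided permutation test of 4 against 4 arrays, whose smallest possible p is 0.0286. Over 20 comparisons 0 passed after Benjamini-Hochberg adjustment, the smallest adjusted p being 0.143 in this exact permutation test. At least 12 of the 20 would have to reach the smallest p for any to pass, so a miss does not show that paralogues act alike. In 30 to 48 h against 6 to 24 h, 4 of the 10 pairs reached that smallest p with no overlap, those of L17, L6, S7 and L7 given next, and in 54 to 72 h against 30 to 48 h 0 did. The first of these comparisons spans the change of array sets. A set effect that differs between probe sets does not cancel within an array, and it cannot be told apart from time there. The size of such a difference depends on the probes, so only its change between arrays was read, and how far near-identical copies bind each other's probes was not tested. Over the 42 genes, level and second-day change had a Spearman correlation of -0.30 with median centring, 0.0045 with quantile normalization and -0.07 with cyclic loess. In the L17, S7 and L7 pairs the gene whose probe set had the lower level rose more, and in the L6 pair that whose probe set had the higher. Such levels do not rank the messages of different genes. The part of level in these changes was not tested.

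In family L17 the difference AT1G27400 less AT1G67430 was -2.46, -2.54, -2.50 and -2.37 at 30 to 48 h, against -3.26, -3.08, -3.10 and -2.95 at 6 to 24 h. It changed by 0.63 (exact permutation p = 0.0286, adjusted p = 0.143). Both genes were lowest at 18 h, and AT1G27400 then rose 1.67-fold, with a 54 to 72 h mean 0.68 above 0 h, while AT1G67430 had a difference of 0.11 that did not pass and a 54 to 72 h mean 0.04 below 0 h.

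In family L6 the difference AT1G74050 less AT1G74060 was -2.26, -1.91, -1.91 and -2.10 at 30 to 48 h, against -1.69, -1.49, -1.07 and -1.53 at 6 to 24 h. It changed by -0.60 (exact permutation p = 0.0286, adjusted p = 0.143). AT1G74060 rose 1.38-fold and the third gene, AT1G18540, 1.32-fold, whereas AT1G74050 had its lowest array at 30 h (6.19) and a difference that did not pass. At 18 h AT1G74050 had 6.68 (6.83 at 0 h), while AT1G74060 had 7.75 (8.45 at 0 h) and AT1G18540 had 7.99 (8.70 at 0 h). The difference AT1G18540 less AT1G74050 changed by 0.53, with overlap (exact permutation p = 0.0571, adjusted p = 0.19).

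In family S7 the difference AT1G48830 less AT3G02560 was 1.62, 1.69, 1.86 and 1.77 at 30 to 48 h, against 2.14, 2.25, 1.95 and 2.12 at 6 to 24 h, a change of -0.38 (exact permutation p = 0.0286, adjusted p = 0.143). AT3G02560 rose 1.51-fold and AT1G48830 had a difference of 0.22 that did not pass. In family L7 the difference AT2G01250 less AT2G44120 was 1.20, 1.31, 1.28 and 1.22 at 30 to 48 h, against 1.72, 1.58, 1.52 and 1.53 at 6 to 24 h, a change of -0.34 with the same exact permutation p. Here both genes were lowest at 18 h, more than 1 below 0 h, and AT2G44120 rose 1.63-fold while AT2G01250 had a difference of 0.37 that did not pass.

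**Figure D4:**
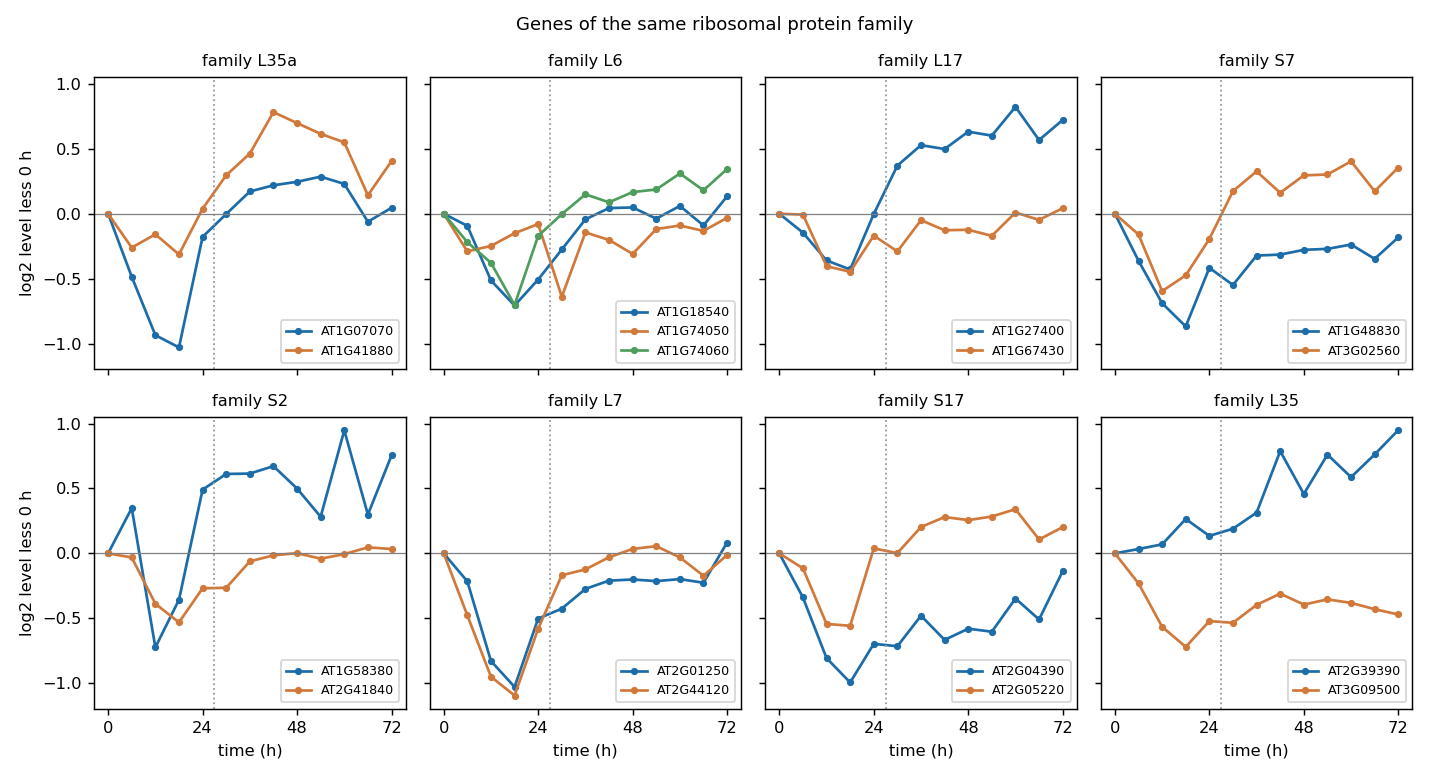
Log2 level of each gene less its own 0 h level (vertical axis) against time in hours (horizontal axis) in the 8 families with at least 2 tested genes, 1 panel per family and 1 line per gene, with the break between array sets dotted. In family L17 the lines lie 0.63 further apart at 30 to 48 h than at 6 to 24 h, and in L35 the line of AT2G39390 stays above 0 while that of AT3G09500 stays below it.

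The pairs of the other families did not pass either. In family S17 the difference AT2G04390 less AT2G05220 was 1.21 at 0 h, 0.79 ± 0.23 at 6 to 24 h, 0.41 ± 0.12 at 30 to 48 h and 0.58 ± 0.23 at 54 to 72 h (SD, n = 4 arrays each). The change between 30 to 48 h and 6 to 24 h, -0.38, had an exact permutation p of 0.0857 (adjusted p = 0.214). In family L35 the difference AT2G39390 less AT3G09500 was -6.40 at 0 h, -5.77 ± 0.29 at 6 to 24 h, -5.56 ± 0.18 at 30 to 48 h and -5.23 ± 0.19 at 54 to 72 h (SD, n = 4 arrays each). AT3G09500 fell on the first day and AT2G39390 was never below its start, but neither change between windows passed the exact permutation test (adjusted p of 0.381 and 0.19). In S2 the difference AT1G58380 less AT2G41840 changed by 0.44 (exact permutation p = 0.114, adjusted p = 0.254), and in L35a that of AT1G07070 less AT1G41880 by 0.08 (exact permutation p = 0.657).

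Other genes of the translation machinery, from lists written by hand, went several ways. Of 14 tested genes of ribosome biogenesis (27 listed), which make and assemble ribosomes in the nucleolus, 13 rose in 30 to 48 h against 6 to 24 h, 8 of them with a log2 difference of at least 1, and 0 fell, against 15.9%, 5.11% and 43.3% of all genes. Their median difference was 1.01, against 0.36 for the 42 ribosomal protein genes and -0.25 for all genes. The largest rises were those of AT3G12860 (2.54-fold), AT5G27120 (2.32-fold) and AT3G58660 (2.27-fold), with adjusted p between 0.000104 and 0.000483 in limma. On the first day 0 of 14 passed, with a median of -0.21, against 12.1% of all genes higher and 12% lower. At 24 h against 6 to 18 h 2 of 14 passed, AT3G58660 and AT5G14520, both higher, against 2.01% of all genes. Their median level less that at 0 h was lowest at 12 h (-0.48), already above 0 at 24 h (0.21) and highest at 42 h (0.96).

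Of 7 tested nuclear genes of the plastid ribosome (36 listed), all 7 fell in 30 to 48 h against 6 to 24 h, 6 of them with a log2 difference of at least 1, against 43.3% and 8.3% of all genes, and 5 had fallen in 6 to 24 h against 0 h, against 12%. Their median differences were -1.51 and -1.35, with the same counts of falls under the other scalings except the values as deposited, where 4 of 7 fell on the second day. The largest falls of the first day were those of AT4G17560 (4.41-fold), AT4G01310 (3.35-fold) and AT3G54210 (3.05-fold), with adjusted p between 0.0342 and 0.0378 in limma. The largest falls of the second day were those of AT3G54210 (3.35-fold), AT2G43030 (3.13-fold) and AT4G01310 (2.94-fold), with adjusted p between 0.000643 and 0.0026 in limma. Their median level less that at 0 h was -2.04 at 24 h and -3.21 at 72 h, with no return. The levels of the photosynthesis genes given above dropped over the same times.

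With centring on array medians, translation factors showed no common course in their calls. Of 11 tested (38 listed), 2 rose and 2 fell in 30 to 48 h against 6 to 24 h, with a median of 0.03, against 15.9% of all genes higher and 43.3% lower. In 6 to 24 h against 0 h 4 rose and 2 fell, with a median of 0.17, against 12.1% and 12%. AT5G12110 fell 2.53-fold on the first day (adjusted p = 0.00262 in limma) and 1.42-fold on the second (adjusted p = 0.0145). EIF4A-2, an RNA helicase of the initiation machinery, rose 1.46-fold on the first day and fell 1.38-fold on the second (adjusted p = 0.0112 and 0.000728 in limma). AT1G72730 and AT5G44320 rose 1.72-fold and 1.59-fold on the first day (adjusted p = 0.0026 and 0.00492 in limma), and AT4G20980 rose 1.36-fold on the second (adjusted p = 0.00127). On the third day AT3G07920 rose 1.83-fold (adjusted p = 0.00787), the 1 of the 11 past the test. Under the other scalings 6 to 9 of the 11 genes rose on the second day, against 19.8 to 57.7% of all genes, and 0 or 1 fell. On that day their median lay above that of all genes by 0.28 with median centring, 0.38 with quantile normalization and 0.35 with cyclic loess. This list's count thus depends on the scaling. Of the TOR kinase pathway 2 of 8 listed genes were tested, and on the first day RAPTOR2 rose 2.10-fold and RAPTOR1 fell 1.46-fold (adjusted p = 0.000385 and 0.0239 in limma). The call of RAPTOR1 was lost with centring on named probe sets (adjusted p = 0.0517). Of 6 listed candidate factors for binding promoters of ribosomal protein genes 0 were tested.

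**Figure D5:**
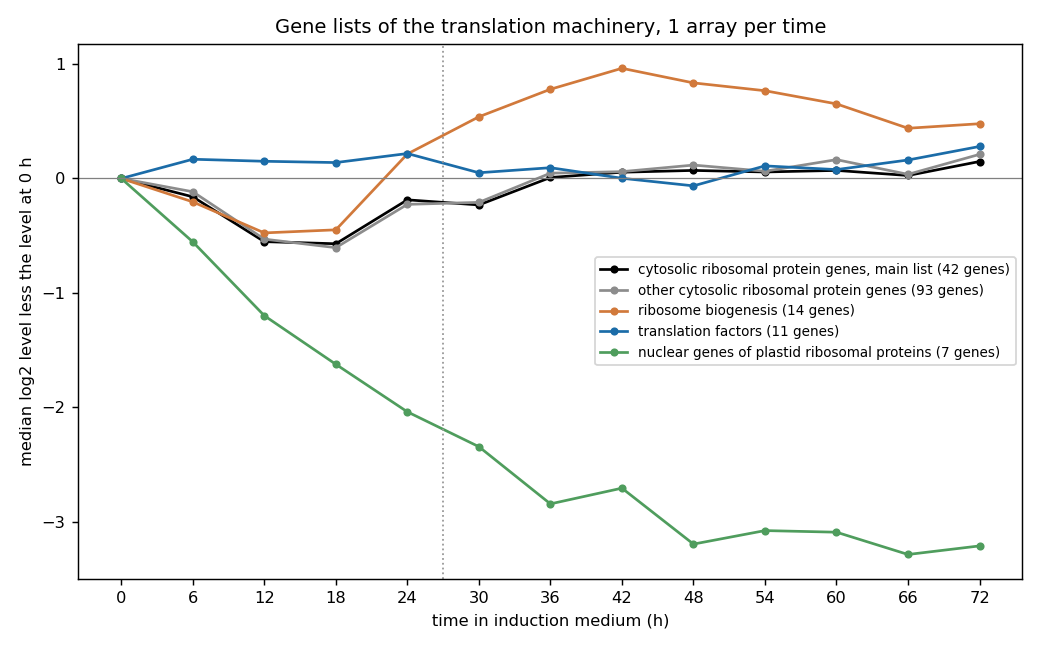
Median over each list of the log2 level less that at 0 h (vertical axis) against time in hours (horizontal axis), 1 array per time. The 42 ribosomal protein genes and the other 93 run together, the ribosome biogenesis genes lie below 0 from 6 to 18 h too and reach 0.96 at 42 h, and the nuclear genes of the plastid ribosome end at -3.21.

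Among the other 93 cytosolic ribosomal protein genes, 2 passed the test with a log2 difference of at least 1 in a comparison of windows. AT2G40010, listed as P0, the protein that anchors the lateral stalk, had 8.99, 8.17, 7.80 and 8.57 at 6 to 24 h, against 10.32 at 0 h, and fell 3.82-fold (adjusted p = 0.0024 in limma). It then had 9.10, 9.39, 9.60 and 9.79 at 30 to 48 h, 2.13-fold above 6 to 24 h (adjusted p = 0.00149). AT4G30800, listed as S11, had 5.90, 5.85, 5.82 and 6.29 at 30 to 48 h, against 4.42, 3.82, 4.56 and 5.69 at 6 to 24 h, a rise (adjusted p = 0.0031 in limma) whose fold is not given because its 12 h level lay below the filter level. Both were named after their values were seen.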

How the data were processed

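Total RNA of 13 cotyledon samples was hybridised to 13 Affymetrix arrays. The deposited values lie on a log scale, taken as log2 from their range. The sources used here give neither the log base nor the background correction, summary or normalization. GCOS is the tool in the submitters' processing notes. The platform annotation assigned 1 gene to 16722 of 38408 probe sets, several to 759 and none to 20927, and 16574 of the 16722 matched the RefSeq table by gene identifier.

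After centring on array medians, a probe set whose mean was among the lowest 30% was dropped, and the highest-mean probe set per gene was kept, which for each of the 44 measured genes was its only one. Window means were fitted in limma 3.58.1 (R 4.3.3) with an eBayes intensity trend and 9 residual degrees of freedom, and adjustment ran over all 10982 genes. The 24 h step, the spline course and the exact permutation tests of paralogue pairs are described with their results. The window fits, the 24 h step and the spline course were tested on simulated data. The permutation tests, the scalings and the filter were not. Python 3.11.15 and matplotlib 3.10.9 drew the figures.

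The genes, lists, families and tests were chosen with earlier results of these data known. The rule for named genes took, per window comparison, the 6 largest and 6 smallest differences, then the 4 pairs of paralogues whose difference changed most, the 3 largest and 3 smallest ranges, and up to 3 called genes with the largest difference from each list. Pairs of S7, L7, S17, L35 and L35a, and genes behind small counts, were added after their values were seen. Alternatives were other scalings, filters, eBayes settings, array weights, spline degrees of freedom, windows and leaving out each array. A floor at the 20th percentile was chosen after seeing the data. The number of arrays limits the precision. Sequences and promoter motifs were not analysed here.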

Additional observations from a re-analysis of the deposited data

Results flagged for a closer look

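Of 126 sets of 4 arrays (42 genes in 3 windows) 5 held an array farther from the others than Dixon's 95% critical value allows, while chance alone flags about 1 set in 20. In 3 of the 5 the array was that of 30 h, the first after the break between array sets, and it was the lowest of its window. AT1G48830 (S7) had 9.93 at 30 h, with 10.16 to 10.20 on the other 3 arrays. AT2G47610 (L7a) had 10.17, with 10.50 to 10.56. AT3G16780 (L19) had 7.29, with 7.52 to 7.54. In the other two sets the array stood above the rest. AT2G01250 (L7) had 10.12 at 72 h, with 9.81 to 9.83 on the other 3 arrays of 54 to 72 h. AT2G09990 (S16) had 4.08 at 6 h, with 3.55 to 3.63 on the other 3 arrays of 6 to 24 h.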

How the results depend on the processing

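Across the alternatives, the rise of the ribosomal protein genes in 30 to 48 h against 6 to 24 h kept its sign and its size moved with the scaling. The median over the genes was 0.58 with quantile normalization, 0.58 with cyclic loess, 0.55 with centring on named probe sets, 1.03 as deposited and 0.50 for 30 and 36 h against 12 and 18 h. Genes called higher numbered 35 with cyclic loess (20.7% of all genes), 37 with centring on named probe sets (23.6%) and 41 as deposited (57.7%). As deposited 0 genes were called lower, against 6.33% of all genes. It was 1 with the other 3 scalings, against 27.8 to 33.9%, and 1 for 30 and 36 h against 12 and 18 h. Past a log2 difference of 1 there were 23 as deposited, 4 for 30 and 36 h against 12 and 18 h and 1 with the lowest 50% of probe sets left out. For 6 to 24 h against 0 h, 22 genes were called lower with array weights (1 past a log2 difference of 1), 2 for 6 and 12 h against 0 h and 0 in the arrays of 0 to 24 h alone. For 54 to 72 h against 30 to 48 h, 1 was called higher and 1 lower with array weights, and 1 higher for 66 and 72 h against 30 and 36 h. For 24 h against 6 to 18 h, array weights called 16 higher, 1 of them past a log2 difference of 1. The course was called in 22 genes with a spline of 2 degrees of freedom and in 5 with a term for array sets. Its fitted range was also 1 or more in 7 (quantile), 33 (as deposited), 8 (cyclic loess), 9 (named probe sets), 6 (array weights), 9 (spline of 4 degrees of freedom) and 0 (term for array sets). In the main fit 46.4% of all genes passed with such a range. Where a count in this paragraph has no share of all genes beside it, it describes only how the calls moved with the setting.

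Leaving out 1 array at a time gave medians over the genes of -0.44 to -0.30 in 6 to 24 h against 0 h. They were 0.31 to 0.48 in 30 to 48 h against 6 to 24 h and 0.04 to 0.11 in 54 to 72 h against 30 to 48 h. At 24 h against 6 to 18 h they were 0.12 to 0.33, the highest without the 6 h array. The counts of calls moved too, and the shares of all genes in these fits are not given here.

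Signs of differences near 0 turned. In 6 to 24 h against 0 h, AT1G58380 was 0.0327 with quantile normalization, 0.0301 as deposited and 0.0467 when arrays were centred on named probe sets (-0.24 to 0.16 over left-out arrays), AT3G04840 was 0.11 with quantile normalization, and AT2G21580 was -0.00828 with cyclic loess and -0.00579 with array weights (-0.00280 to 0.049). In 30 to 48 h against 6 to 24 h, AT3G04840 was 0.26 (quantile), 0.16 (cyclic loess) and 0.41 (as deposited), and AT1G74050 was 0.54 as deposited and 0.0571 when centred on named probe sets. Over left-out arrays AT2G19740 ran from -0.0582 to 0.0853 and AT2G19730 from -0.0267 to 0.23. In 54 to 72 h against 30 to 48 h the ranges were -0.0421 to 0.0328 for AT3G09500 (0.0155 for 66 and 72 h against 30 and 36 h), -0.15 to 0.0675 for AT1G58380 and -0.0874 to 0.0284 for AT1G07070. The cause of these changes was not tested. In the paralogue tests 0 comparisons passed under the alternatives run, where the smallest possible p again left little room to pass. The changes of the L17, L6, S7 and L7 pairs described above kept their sign in these alternatives.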
